A study of Mus musculus with 5 samples.

Results

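The transcripts of 8 S100 genes other than the neutrophil pair S100a8 and S100a9 were followed in the tumor-bearing hemisphere of mice with or without UMBO, the ultrasound-mediated opening of the blood-brain barrier. The 8 genes are S100a1, S100a3, S100a4, S100a6, S100a10, S100a11, S100a13 and S100a16. They were matched by mouse symbol and were found among 55573 genes in each of the 5 count files. All 8 were also among the 23592 genes with enough counts to be tested. Each library was bulk RNA from the right hemisphere of a C57BL/6 female that had received GL261 cells, a mouse glioma line transduced with a luciferase/mKate2 vector, in the right caudate-putamen at an age of 7 to 8 weeks. Mice of both groups carried this tumor and were treated on days 21 and 24, and the hemisphere was taken 24 h after the last session. The vehicle group of 3 libraries was given inVivoPure dilution buffer. The UMBO group of 2 libraries was sonicated after an intravenous injection of microbubbles, with no antibody named in the labels, and a further UMBO mouse of the study's methods was not analysed here. GL261 is a single line, and its share of each hemisphere was not measured in these files.

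S100 proteins are small proteins with a pair of EF-hand calcium-binding motifs that act mostly as dimers. On binding calcium most of them expose a surface that grips a target protein, such as an annexin, a myosin or a membrane protein, and some are also released from cells and bind receptors such as RAGE, encoded by Ager. In brain S100b is the familiar astrocyte member, whereas S100a4, S100a6, S100a10 and S100a11 are known from macrophages, fibroblasts, reactive glia and many tumors.

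The libraries held between 59736771 and 86164159 counts, and levels are given as CPM, counts divided by the library total after TMM scaling (edgeR's correction for composition). UMBO replicate 2 stood apart from the other libraries. It lay at 133.7 on the first principal component of log2 CPM over all tested genes, which held 78.7% of the variance, against values from -68.4 to 17.0 in the rest. The mitochondrial share of its counts was 3.36%, against 5.29% to 6.61% in the rest, and results that rest on it are given with and without it. No marker of the cell type lists was at 0 in every library. The summed neuronal markers (Snap25, Rbfox3, Slc17a7, Gad1 and Nefl) lay between 1848 and 5680 CPM, lowest in UMBO replicate 2. The summed oligodendrocyte markers lay between 3147 and 3590 CPM, so brain tissue was met by its markers, which say nothing of the tumor.

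The 8 genes lie on chromosome 3 of GRCm38, in 2 groups. S100a1 (chr3:90511034-90514392, minus strand), S100a13 (chr3:90514435-90524581), S100a16 (chr3:90537254-90543151), S100a3 (chr3:90560578-90602702), S100a4 (chr3:90603771-90606045) and S100a6 (chr3:90612882-90624181) lie within 113.1 kb, and all but S100a1 are on the plus strand. S100a11 (chr3:93520488-93526287) and S100a10 (chr3:93555080-93564643), also on the plus strand, lie 2896.3 kb further on. S100a1 and S100a13 point away from each other, with 42 bases between them in the GENCODE M21 annotation. RefSeq start-site windows on GRCm38.p6, running from 250 bases before to 50 bases after the start, were at hand for 7 of the 8 genes, and the windows of S100a1 and S100a13 share 204 bases. The S100a13 window is shown because a single stretch of DNA lies between 2 of the genes, and its capitals mark the bases between them (chr3:90514185-90514484, plus strand).
S100a13 window: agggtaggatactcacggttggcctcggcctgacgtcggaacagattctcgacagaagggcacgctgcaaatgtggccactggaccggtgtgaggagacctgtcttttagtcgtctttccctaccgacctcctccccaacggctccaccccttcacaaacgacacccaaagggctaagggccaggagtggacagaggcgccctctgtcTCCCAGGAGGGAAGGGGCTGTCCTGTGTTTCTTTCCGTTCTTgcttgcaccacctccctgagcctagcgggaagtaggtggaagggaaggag

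Both strands of these windows were searched for 4 short motifs, and the share of 32851 RefSeq windows of the same length that hold each was counted. The AP-1 motif was searched as TGANTCA and occurs in 7.81% of all windows. For the TATA box the letters were TATAAA, with a share of 13.6%. The GC box was searched as GGGCGG, found in 35.7%. For the E-box the letters were CACGTG, found in 7.15%. The windows of S100a1 and S100a13 held none of the 4. The windows of S100a4 (chr3:90603520-90603819), S100a6 (chr3:90612644-90612943) and S100a11 (chr3:93520246-93520545), all on the plus strand, are shown for the 3 genes with the largest fold changes, with the motif letters in capitals.
S100a4 window: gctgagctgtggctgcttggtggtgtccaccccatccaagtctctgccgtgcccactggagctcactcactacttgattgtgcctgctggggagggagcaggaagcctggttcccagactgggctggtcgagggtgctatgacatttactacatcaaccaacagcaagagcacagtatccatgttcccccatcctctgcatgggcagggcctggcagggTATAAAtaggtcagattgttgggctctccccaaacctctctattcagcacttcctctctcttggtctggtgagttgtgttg
S100a6 window: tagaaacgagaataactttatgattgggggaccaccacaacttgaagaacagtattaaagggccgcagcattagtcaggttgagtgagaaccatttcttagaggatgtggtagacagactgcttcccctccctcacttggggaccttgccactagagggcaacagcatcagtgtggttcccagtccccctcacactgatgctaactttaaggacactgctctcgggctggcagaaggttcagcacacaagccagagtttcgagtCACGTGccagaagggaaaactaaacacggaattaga
S100a11 window: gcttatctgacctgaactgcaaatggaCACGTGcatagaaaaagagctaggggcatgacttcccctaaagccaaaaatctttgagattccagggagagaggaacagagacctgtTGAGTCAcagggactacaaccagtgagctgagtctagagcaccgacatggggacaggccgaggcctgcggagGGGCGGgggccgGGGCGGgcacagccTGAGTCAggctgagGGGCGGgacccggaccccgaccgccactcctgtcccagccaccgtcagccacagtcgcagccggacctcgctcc
The S100a4 window has TATAAA beginning 31 bases before the start site. In the S100a6 window CACGTG begins at base 15 of the transcript. S100a11 has 2 matches to TGANTCA, beginning 136 and 38 bases before the start site, besides 3 GC boxes and 1 E-box. Among the other windows, S100a16 has a start with 1 match to TGANTCA and 1 GC box, and 2 of the 4 starts of S100a3 hold a TATA box or a GC box. No matches overlapped each other. These are matches of letters, and no factor was measured on them.

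All 8 S100 transcripts had a higher mean CPM with UMBO than with vehicle, by log2 fold changes from 0.77 to 3.22. None of them passed the test over all genes, in which edgeR's quasi-likelihood test gave an adjusted p = 0.497 to each of the 8. That test called 0% of the 23592 genes, and 0 genes in number. At an unadjusted p under 0.05, 7 of the 8 S100 genes were higher and 0 were lower, where 5.30% of all tested genes were higher and 2.06% were lower. The median log2 fold change of the 8 was 1.23, and that of all tested genes was 0.012. The 8 genes were chosen with earlier results of these data known, so these numbers describe the list and are no test of it. S100a4 passed the filter on low counts only through its UMBO libraries, since 1 vehicle library was over the filter's level of 0.122 CPM. Without S100a4, 6 of 7 had an unadjusted p under 0.05 and the median was 1.12. The DESeq2 Wald test called 0.179% of the 22403 genes to which it gave an adjusted p, 40 genes, and S100a4 was the 1 S100 gene of the 8 among them (DESeq2 adjusted p = 0.0154). In bulk tissue more cells of a type and more RNA per cell cannot be told apart.

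**Figure D1:**
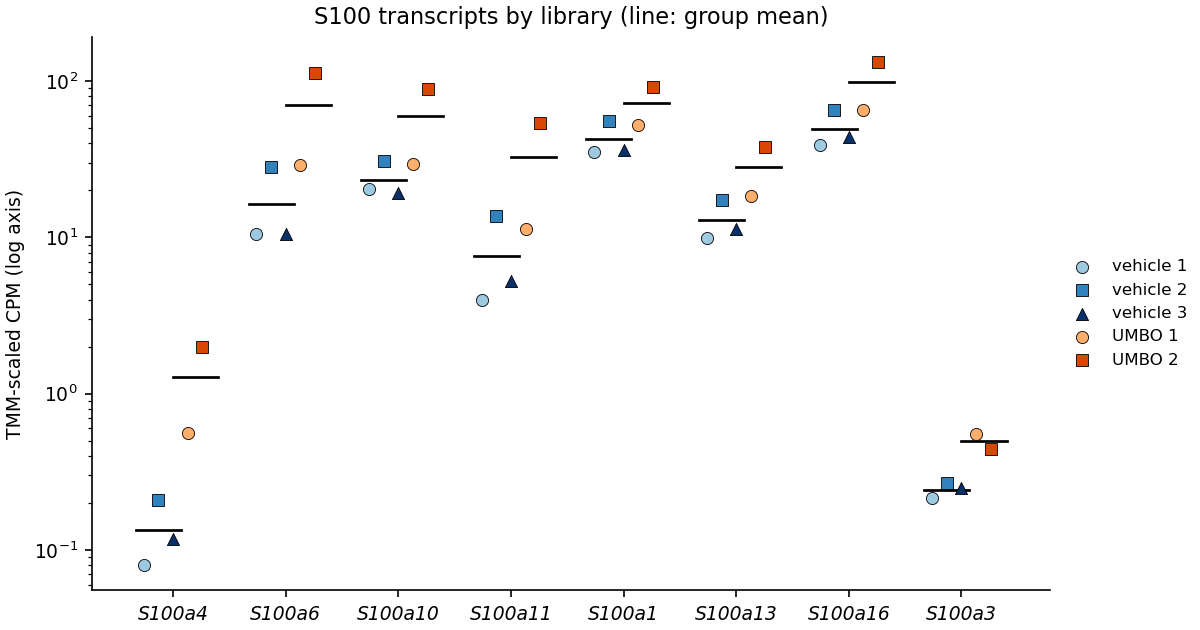
TMM-scaled CPM of each S100 gene (log axis) in vehicle libraries 1 to 3 (blue) and UMBO libraries 1 and 2 (orange), with a line at each group mean. UMBO 2 is the highest library for 7 of the 8 genes, and UMBO 1 lies close to vehicle 2 for all but S100a4 and S100a3.

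S100a4, also called metastasin, binds non-muscle myosin and marks many fibroblasts, macrophages and motile tumor cells. It had the largest difference of the 8. It was at 0.0802, 0.208 and 0.118 CPM in vehicle replicates 1 to 3, and at 0.562 and 1.98 CPM in UMBO replicates 1 and 2. Both UMBO libraries were therefore above every vehicle library, and UMBO replicate 1 was 2.704 times the highest of them. The values rest on few reads, with 6, 14 and 10 counts in the vehicle libraries and 48 and 130 with UMBO. The exact Poisson 95% interval, which covers counting error only, ran from 0.114 to 0.348 CPM in vehicle replicate 2 and from 0.414 to 0.745 CPM in UMBO replicate 1. The log2 fold change was 3.22 ± 0.68 (SE), and it was 2.05 without UMBO replicate 2. Of the exonic length of S100a4, 51.7% (302 bases) is shared on the same strand with the gene model Gm42674, which was listed at 0 in every library. How reads on both were counted is not given in the sources used here, so the level of S100a4 is uncertain.

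S100a6, or calcyclin, binds the ubiquitin ligase adaptor Cacybp and the co-chaperone Sugt1. Its level was 10.5, 28.0 and 10.5 CPM with vehicle and 29.2 and 112 CPM with UMBO. The groups did not overlap, but UMBO replicate 1 was only 1.04 times vehicle replicate 2, and UMBO replicate 2 was 3.83 times UMBO replicate 1. The log2 fold change was 2.11 ± 0.68 (SE) with all libraries and 0.84 without UMBO replicate 2.

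S100a11, which pairs with annexin A1, followed S100a6 closely. It was at 3.96, 13.7 and 5.26 CPM with vehicle and 11.3 and 54.1 CPM with UMBO. Here the groups overlapped, since vehicle replicate 2 was above UMBO replicate 1. The log2 fold change was 2.10 ± 0.77 (SE), and 0.57 without UMBO replicate 2. The pseudogene S100a11-ps had 0 counts in 4 libraries and 3 counts in UMBO replicate 2.

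S100a10, also called p11, is the family member that does not bind calcium, and it holds annexin A2 in a tetramer that gathers plasminogen at the cell surface. It was at 20.4, 30.7 and 19.1 CPM with vehicle and 29.6 and 89.2 CPM with UMBO. Vehicle replicate 2 and UMBO replicate 1 were again nearly level and in reverse order, so the groups overlapped. The log2 fold change was 1.34 ± 0.47 (SE), and 0.34 without UMBO replicate 2.

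S100a1 and S100a13 are the neighbours that start back to back. S100a1 is known for its action on the calcium channels and pumps of muscle and is also made in brain. It was at 35.0, 55.5 and 36.4 CPM with vehicle and 52.4 and 91.7 CPM with UMBO, with vehicle replicate 2 above UMBO replicate 1. Its log2 fold change of 0.77 ± 0.32 (SE) was the smallest of the 8, and S100a1 was the gene whose unadjusted p was over 0.05. S100a13 takes part in the export of Fgf1 and interleukin-1 alpha, proteins that leave the cell without a signal peptide. Its level was 9.95, 17.4 and 11.4 CPM with vehicle and 18.5 and 37.7 CPM with UMBO. These groups did not overlap, and UMBO replicate 1 was 1.06 times the highest vehicle library. The log2 fold change of S100a13 was 1.12 ± 0.38 (SE). These values were 0.31 for S100a1 and 0.52 for S100a13 without UMBO replicate 2. The ratio of S100a13 to S100a1 CPM was 0.285, 0.314 and 0.313 with vehicle and 0.353 and 0.411 with UMBO, so in these libraries the ratio was higher in both UMBO libraries than in any vehicle library.

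S100a16, a widely expressed member, was at 39.0, 65.0 and 43.7 CPM with vehicle and 65.1 and 133 CPM with UMBO. UMBO replicate 1 was above vehicle replicate 2 by a factor of 1.00, a tie in practice. Its log2 fold change was 1.01 ± 0.36 (SE), and 0.40 without UMBO replicate 2. S100a3, best known from the hair cuticle, was the exception to the pattern of the others. It was at 0.214, 0.267 and 0.248 CPM with vehicle and 0.550 and 0.443 CPM with UMBO. UMBO replicate 1, not 2, was its highest library, and UMBO replicate 2 was still 1.66 times the highest vehicle library. The counts behind these values were 16, 18 and 21 with vehicle and 47 and 29 with UMBO. The Poisson interval used for S100a4 ran here from 0.404 to 0.731 CPM in UMBO replicate 1 and from 0.297 to 0.636 in replicate 2. Both overlapped that of vehicle replicate 2, from 0.158 to 0.422 CPM, and they overlapped each other. Only UMBO replicate 1 lay clear of vehicle replicates 1 and 3. The order of the UMBO libraries and their place above vehicle replicate 2 were thus within counting error. The log2 fold change of S100a3 was 1.03 ± 0.36 (SE), and 1.18 without UMBO replicate 2. S100a3 shares 144 bases of its exons with Gm42674 as well.

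Across the 8 genes, both UMBO libraries were above every vehicle library for 5 (S100a3, S100a4, S100a6, S100a13 and S100a16), where 11.5% of all tested genes were above and 11.4% were below. S100a4 passed the filter on low counts only through its UMBO libraries, which limits its calls here and in the fits below. Without S100a4, 4 of 7 were above. The other 3 (S100a1, S100a10 and S100a11) overlapped, each with vehicle replicate 2 over UMBO replicate 1. Vehicle replicate 2 was the highest vehicle library for all 8. The summed CPM of the 8 genes was 119, 211 and 127 with vehicle and 207 and 520 with UMBO, so that UMBO replicate 1 was at the level of vehicle replicate 2. Without UMBO replicate 2 the median log2 fold change of the 8 was 0.54, and 2 genes (S100a3 and S100a4) had an unadjusted p under 0.05, where 1.15% of all genes tested in that fit were higher at such a p. Without vehicle replicate 1, and likewise without vehicle replicate 3, 1 gene (S100a4) had such a p, beside 0.838% and 0.945% of all genes. Without UMBO replicate 1 the median was 1.71 and 7 of the 8 were higher at an adjusted p of edgeR under 0.05, as were 10.1% of all genes, in a fit that took the lone UMBO library to vary like the vehicle libraries.

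**Figure D2:**
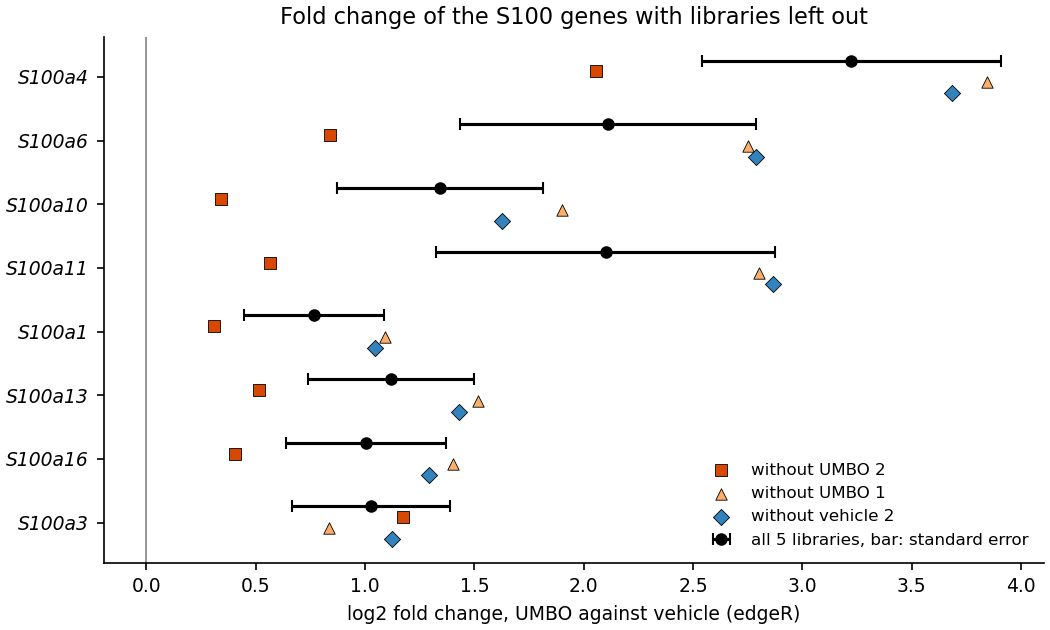
Log2 fold change of each S100 gene, UMBO against vehicle, from edgeR with all 5 libraries (black, bar: standard error) and with a library left out. Without UMBO 2 the values lie between 0.31 and 2.05, and for 7 of the 8 genes this is the lowest of the fits drawn.

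**Figure D3:**
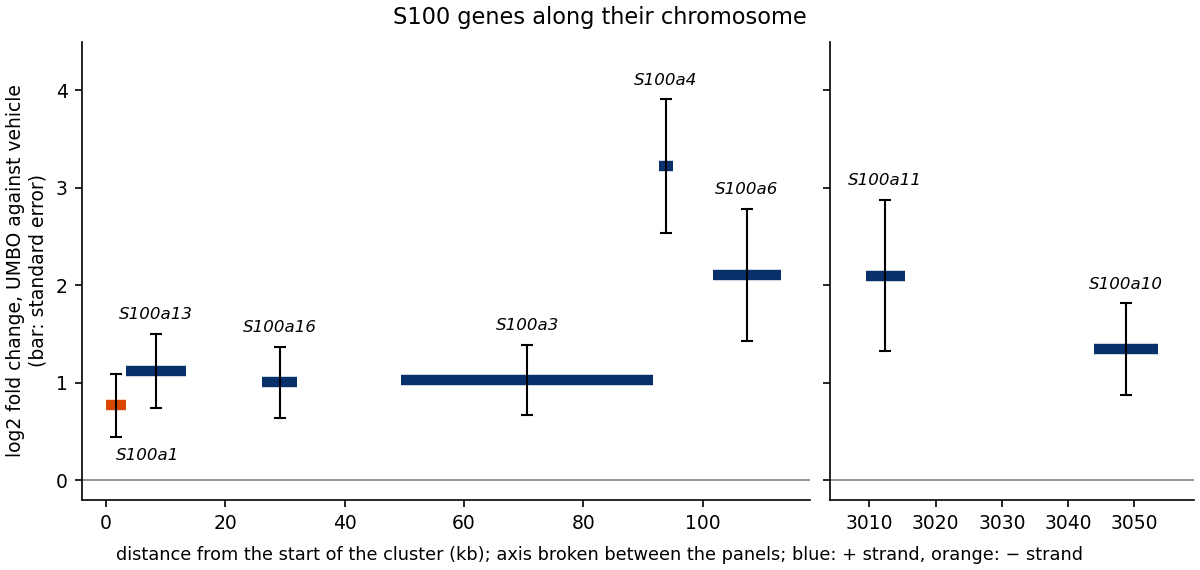
Log2 fold change (vertical axis, bar: standard error) of each S100 gene against its distance in kb from the start of the cluster, with the gene's length as a thick line (blue: plus strand, orange: minus strand) and the axis broken between the panels. S100a4 and S100a6 at the far end of the first group and S100a11 in the second group have the values over 2.

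The order of the 8 genes by level was read per kb of exonic length, as CPM per kb. In the vehicle libraries S100a1 was highest (mean 61.0 ± 16.5, SD, n = 3), followed by S100a16 (30.4 ± 8.55), S100a10 (19.3 ± 5.24), S100a13 (18.1 ± 5.56), S100a11 (14.9 ± 10.3) and S100a6 (11.95 ± 7.40). S100a4 (0.232 ± 0.112) and S100a3 (0.0429 ± 0.00475) were far below. Neighbours from S100a16 to S100a6 had overlapping vehicle ranges. Across libraries only S100a1, S100a4 and S100a3 were therefore set apart beyond the spread in level per kb. Within each of the 5 libraries S100a16 was above S100a10 and S100a11 was above S100a6 in level per kb. This order depends on the exonic length used as divisor. The length was 1367 bases for S100a6 and 511 for S100a11, and 1617 for S100a16 and 694 for S100a1. In CPM not divided by length, S100a6 was above S100a11 and S100a16 was above S100a1 in each of the 5 libraries. The exonic length of S100a3, 5660 bases, includes long transcript models, which lowers its level per kb. The place of S100a4 is uncertain too, since 51.7% of its exonic length is shared with Gm42674 and how such reads were counted is not known.

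Within single libraries the middle of this order varied. In vehicle replicate 2 S100a11 (26.8 CPM per kb) was above S100a10 (25.3) and S100a13 (24.4), and in vehicle replicate 3 S100a13 was above S100a10. In UMBO replicate 2 the shift was wider. S100a11 was at 106 CPM per kb there and S100a6 at 81.8, against 82.0 for S100a16 and 52.7 for S100a13. In UMBO replicate 1 S100a11 was at 22.1 CPM per kb and S100a6 at 21.4, both still below S100a16 at 40.3 and S100a13 at 25.9. As a share of the summed level per kb, S100a1 made up 41.7%, 36.8% and 40.6% with vehicle and 35.8% and 24.9% with UMBO, lower in both UMBO libraries than in any vehicle library. The share of S100a6 was 6.36%, 9.42% and 5.92% with vehicle and 10.1% and 15.4% with UMBO. For S100a11 it was 6.41%, 12.3% and 7.95% with vehicle and 10.5% and 19.9% with UMBO, so these groups overlapped.

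**Figure D4:**
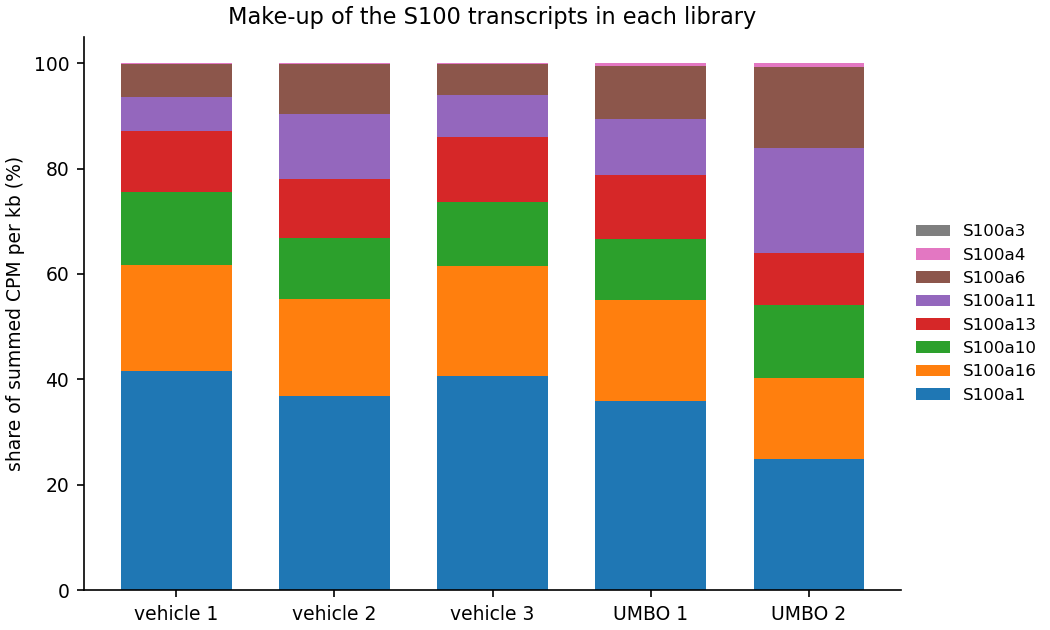
Share (%) of each S100 gene in the summed CPM per kb of the 8 genes, stacked for each library. S100a1 makes up 35.8% in UMBO 1 and 24.9% in UMBO 2, against 36.8% to 41.7% in the vehicle libraries, and S100a6 and S100a11 take more of the UMBO 2 bar than of any other.

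The 8 profiles over the libraries were compared by the root mean square distance of their log2 CPM, each relative to its vehicle mean, over the 5 libraries. S100a13 and S100a16 were the nearest pair, at a distance of 0.0790 log2 units. S100a6 and S100a11, on different sides of the gap between the gene groups, were 0.180 apart. The adjacent genes S100a3 and S100a4, both with few reads, were the farthest pair, at 1.38. Their ratio, S100a4 to S100a3 CPM, was 0.375, 0.778 and 0.476 with vehicle and 1.02 and 4.48 with UMBO. The ratio of S100a6 to S100a1 CPM was 0.301, 0.505 and 0.288 with vehicle and 0.557 and 1.22 with UMBO. Outside the family, the tested genes nearest to the median profile of the 8 were Apbb1ip (0.0573 log2 units), an adaptor of integrin activation in leukocytes, Elk3 (0.0600), an ETS transcription factor, and Prrx2 (0.0696), Tpt1-ps6 (0.0715) and Copz2 (0.0715). Apbb1ip was at 11.4, 19.7 and 12.7 CPM with vehicle and 21.0 and 46.1 CPM with UMBO. This likeness is over 5 libraries only, and the same libraries enter every profile.

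Marker lists of several cell types had the same order of libraries as some of the S100 genes. The summed markers of reactive astrocytes (Gfap, Vim, Serpina3n, Lcn2 and Cd44) were 316, 868 and 512 CPM with vehicle and 1822 and 2887 CPM with UMBO, and their order of libraries was that of S100a4, S100a13 and S100a16, an order that the microglial, fibroblast and endothelial sums below also had. Monocyte and macrophage markers (Ly6c2, Ccr2, Lyz2, Plac8, Arg1 and Ms4a7) summed to 16.9, 109 and 35.7 CPM with vehicle and 76.1 and 415 CPM with UMBO, with the library order of S100a1 and S100a11, which the neutrophil list also had. The 7 proliferation markers summed to 36.6, 83.5 and 24.4 CPM with vehicle and 86.7 and 378 CPM with UMBO, in the library order of S100a6. UMBO replicate 2 was the highest library for each of these lists and vehicle replicate 2 the highest of the vehicle libraries.

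Fibroblast markers (Dcn, Lum, Col1a1, Col1a2 and Col3a1) ranged from 73.1 to 114 CPM with vehicle and from 192 to 227 CPM with UMBO. Endothelial markers ranged from 106 to 151 CPM with vehicle and from 184 to 201 CPM with UMBO, and microglial markers from 275 to 399 and from 505 to 637 CPM. Groups of all 3 lists did not overlap. At an unadjusted p under 0.05, 4 of 5 reactive astrocyte markers, 4 of 5 fibroblast, 3 of 5 endothelial, 3 of 5 microglial, 7 of 7 proliferation and 1 of 6 monocyte and macrophage markers were higher with UMBO, beside 5.30% of all tested genes. The 2 other microglial markers had lower fitted values with UMBO. Neutrophil markers were low, from 0.749 to 2.03 CPM with vehicle and at 1.17 and 5.82 CPM with UMBO, with 5 of their 8 genes under 0.5 CPM in every library and none at 0 in all. Neuronal, astrocyte, oligodendrocyte, ependymal, choroid plexus and T cell sums overlapped between the groups. UMBO replicate 2 was the lowest library for neurons (1848 CPM, against 3648 to 5680 in the rest) and astrocytes (1988, against 3409 to 4827). It was also lowest for choroid plexus (488, against 796 to 844) and oligodendrocytes (3147, against 3384 to 3590), and highest for T cells. All 5 neuronal markers had lower fitted values with UMBO, 0 at an unadjusted p under 0.05. In 3 of them both UMBO libraries were below every vehicle library, beside 11.4% of all tested genes. The part of these cell types in the S100 differences was not tested.

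**Figure D5:**
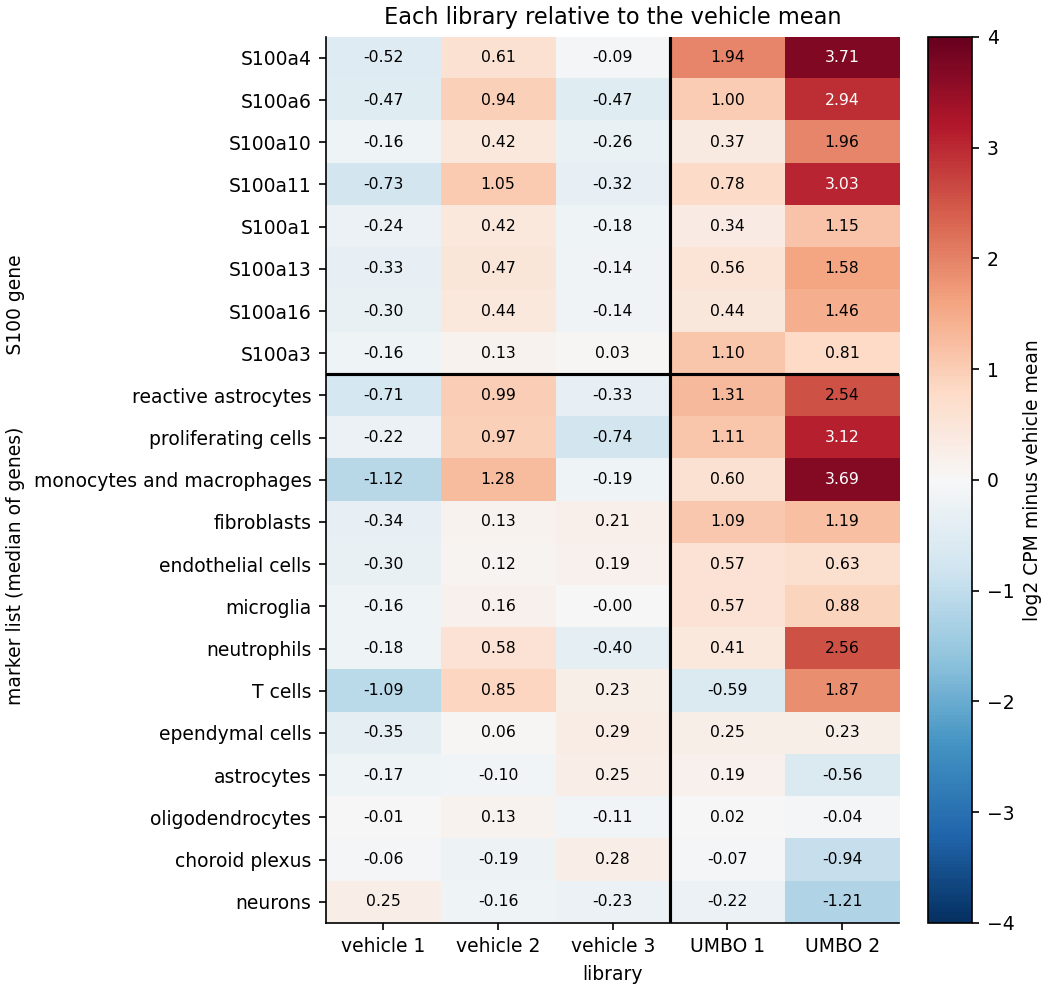
Log2 CPM relative to the vehicle mean in each library, for the 8 S100 genes and for the median gene of 13 marker lists (colour and printed value). UMBO 2 reaches 3.71 for S100a4, 3.03 for S100a11 and 2.94 for S100a6, and 3.69 for the monocyte and macrophage list.

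A list of 36 partners and receptors of S100 proteins, all tested, had a median log2 fold change of 0.31. Of these, 23 were higher and 13 lower, 6 were higher and 1 lower at an unadjusted p under 0.05, and 0 passed the adjusted threshold of edgeR. Of all tested genes 12007 were higher and 11585 lower, with 5.30% and 2.06% at such a p. The partner median was 0.098 without UMBO replicate 2. Annexins, the membrane-binding proteins that several S100 dimers bridge, were higher in 7 of 8 cases, with a median of 0.97. Anxa2, the partner of S100a10, was at 13.6, 43.2 and 18.1 CPM with vehicle and 37.5 and 160 CPM with UMBO, a log2 fold change of 1.98 ± 0.72 (SE). Anxa1, the partner of S100a11, had a log2 fold change of 1.95 ± 0.90 (SE). Without UMBO replicate 2 these values were 0.59 for Anxa2 and 0.15 for Anxa1. Groups overlapped for both, as they did for S100a10 and S100a11 themselves. The ratio of Anxa1 to S100a11 CPM was 0.865, 1.13 and 0.867 with vehicle and 0.767 and 0.955 with UMBO. For Anxa2 to S100a10 it was 0.666, 1.41 and 0.945 with vehicle and 1.26 and 1.79 with UMBO, so the groups overlapped in either ratio. Anxa3 was higher in both UMBO libraries than in any vehicle library, with a log2 fold change of 1.20 ± 0.36 (SE), whereas Anxa4, at 1.37 ± 0.49 (SE), overlapped. Without UMBO replicate 2 they were at 0.66 and 0.53.

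In the plasminogen system, 3 of 4 genes were higher. Plau, the urokinase gene, was at 3.38, 6.20 and 3.06 CPM with vehicle and 6.59 and 22.8 CPM with UMBO, a log2 fold change of 1.80 ± 0.58 (SE), and 0.65 without UMBO replicate 2. Plat, the gene of tissue plasminogen activator, was at 26.9, 30.8 and 28.3 CPM with vehicle and 43.3 and 34.4 CPM with UMBO, and its log2 fold change was 0.44 ± 0.18 (SE). Without UMBO replicate 1, its highest library, that value was 0.24. Of the 3 membrane proteins that S100a10 carries to the surface, 1 had an unadjusted p under 0.05. This was Htr1b, a serotonin receptor, which was at 21.3, 19.0 and 19.5 CPM with vehicle and 14.2 and 9.47 CPM with UMBO, a log2 fold change of -0.75 ± 0.24 (SE), and -0.49 without UMBO replicate 2. In the whole partner list both UMBO libraries were below every vehicle library for 7 of 36 genes and above for 8, beside 11.4% and 11.5% of all tested genes, and the 7 include Htr1b, Kcnk3 and Trpv6. For Kcnk3 and Trpv6, looked at after their values were seen, the log2 fold changes were -0.27 and -0.75.

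Myh9, the myosin that S100a4 binds, had a log2 fold change of 0.57 ± 0.25 (SE), and 0.21 without UMBO replicate 2. Iqgap1, a cytoskeletal scaffold and the sixth of the higher genes, was at 0.65 ± 0.27 (SE), and 0.21 without that library. The log2 fold change was 0.40 ± 0.26 (SE) for Ahnak, the scaffold bound by S100a10 and Anxa2, 0.42 ± 0.24 (SE) for Cacybp and -0.37 ± 0.29 (SE) for Fgf1, and these groups overlapped. Leaving out UMBO replicate 2 gave 0.18 for Ahnak, 0.070 for Cacybp and -0.053 for Fgf1. Ager was at 0.709, 1.80 and 1.10 CPM with vehicle and 1.54 and 3.24 CPM with UMBO, a log2 fold change of 0.99 ± 0.52 (SE), and 0.36 without UMBO replicate 2. Both calcium-handling targets of S100a1, Ryr2 (log2 fold change -0.93) and Atp2a2 (-0.75), had lower means with UMBO and overlapped between the groups, and without UMBO replicate 2 they were at -0.30 and -0.28.

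Of the 8 other S100 genes 4 were tested. Their median log2 fold change was 1.37, and S100a8 alone had an unadjusted p under 0.05. S100b, the astrocyte member, was at 116, 160 and 137 CPM with vehicle and 170 and 235 CPM with UMBO, a log2 fold change of 0.56 ± 0.24 (SE), and 0.31 without UMBO replicate 2. S100a8 and S100a9, the neutrophil pair, were at 0.223 and 0.246 CPM in UMBO replicate 1, within the vehicle range, and at 1.60 and 2.17 CPM in UMBO replicate 2. Their log2 fold changes of 2.38 and 1.87 were 0.37 and -0.40 without UMBO replicate 2. In UMBO replicate 1, S100a1, S100a10 and S100a11 were likewise within the vehicle range, and the other 5 of the 8 were above it, S100a6, S100a13 and S100a16 by at most 1.06 times. S100a7a had a log2 fold change of 0.87 ± 0.43 (SE), and 0.74 without UMBO replicate 2. S100a5, S100a14 and S100g were at or below 0.183 CPM in every library and were not tested, and S100z was listed at 0 throughout.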

How the data were processed

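RNA of the right hemisphere was sequenced by the authors with a SMARTER mRNA-Seq kit. They mapped reads with STAR 2.7.2a to GRCm38 and deposited raw counts per gene with Ensembl identifiers, 1 file per library. The annotation release and strand use are not given in the sources used here. Groups and replicate numbers came from the labels, which describe mice but do not tie each library to a mouse of its own, so p-values measure the spread between these libraries.

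Symbols and positions came from GENCODE M21 (55394 of 55573 genes). Counts were scaled by TMM, filtered with filterByExpr and compared by edgeR's quasi-likelihood test (version 4.0.16, in R 4.3.3), and p-values of 23592 genes were adjusted by Benjamini-Hochberg, with 0.05 as the threshold. CPM are counts scaled to the TMM-corrected library size, and log2 CPM used a prior count of 2. DESeq2 1.42.0 was an alternative, with its independent filtering set for 0.05. Other alternatives covered the scaling, the filter, the replicate number as a block and each library left out. Totals of 59736771 to 86164159 counts leave little counting error except for genes with few reads, among them S100a2, S100a3, S100a4, S100a8 and S100a9.

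The members and lists were chosen with earlier results of these data known. Named genes were the 8 members, the other S100 genes, 7 well-known partners, the 6 partners with the smallest unadjusted p, and the 5 genes nearest to the members' median profile. Iqgap1, Kcnk3, Trpv6, Ryr2 and Atp2a2 were named after their values were seen.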

Additional observations from a re-analysis of the deposited data

How the results depend on the processing

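All 86 alternative log2 fold changes of the 8 S100 genes were higher with UMBO, and 15 of them passed the adjusted threshold. These were 7 with the replicate block, where 9.91% of all genes passed, 7 without UMBO replicate 1 and 1 by DESeq2. The number of genes passing was 40 by DESeq2, 2337 with the replicate block, and from 0 to 4543 with a library left out (the highest without UMBO replicate 1). The deviations of libraries with the same number correlated at 0.453 and 0.760, but 2 pairs do not establish that the numbers pair mice. With a vehicle library left out, the S100 genes with an unadjusted p under 0.05 numbered from 1 to 7. The 7 were without vehicle replicate 2, where 2164 of 23120 genes were higher at such a p. With any library left out, the median log2 fold change of the 8 ran from 0.54 to 1.71, and from 5 to 8 did not overlap between groups. The 8 were without vehicle replicate 2, where 30.1% of all genes were above, or without UMBO replicate 1, where 42.2% were. The 5 were without vehicle replicate 1, vehicle replicate 3 or UMBO replicate 2, where 13.2%, 14.8% and 18.6% of all genes were above. Scaling by library size only gave 4 S100 genes that did not overlap, for which the share of all genes is not given here. The partner median of 0.31 was 0.43 by library size only, 0.46 with a filter of 1 CPM in 2 libraries, and from 0.098 to 0.45 with a library left out. Scaling by library size moved the median of all genes from 0.012 to 0.13. The median of the other S100 genes was 0.60 with the CPM filter, which tests fewer of them, and from 0.34 to 1.84 with a library left out. S100a9 ranged from -0.40 (reversed, without UMBO replicate 2) to 2.702. The cause of these shifts was not tested. Precision is limited by the 2 UMBO libraries and, for genes with few reads, by depth.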

Other observations

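S100a2, which lies within the span of S100a3 on the same strand and shares no exonic bases with it, was looked at after the values of S100a3 were seen. It had 13, 15 and 10 counts with vehicle and 29 and 18 with UMBO, or 0.174, 0.223 and 0.118 CPM against 0.339 and 0.275 CPM. Both UMBO libraries were above every vehicle library, and UMBO replicate 1 was the highest, as for S100a3. For S100a3 the order of the UMBO libraries was within counting error. No explanation was tested.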
